A study of Mus musculus with 9 samples.

Results

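The 7 genes described here carry bile acids through the enterocytes of the ileum and report on them to the liver. They are Slc10a2, Fabp6, Slc51a, Slc51b, Nr1h4, Nr0b2 and Fgf15, taken by name from the 43629 genes of the count table, and all 7 were present and had enough counts to be tested. RNA of epithelial cells isolated from mouse small intestine was sequenced in 9 libraries, 3 in each of 3 groups. The study asked which genes depend on the hypoxia-inducible factors HIF1α (gene Hif1a) and HIF2α (gene Epas1) in this epithelium. One group is labelled HIF1α∆IEC, another HIF2α∆IEC, and the controls are labelled as littermates carrying HIF[alpha]F/F, which does not say which of the genes is floxed. Of the 7 genes, 0 passed the test adjusted over all genes in any comparison, where 0% of all genes tested did. The largest differences from control were a fitted 4.45-fold higher level of Fgf15 in the libraries labelled HIF1α∆IEC and a 2.27-fold and 2.53-fold higher level of Fabp6 in those labelled HIF1α∆IEC and HIF2α∆IEC, each with a wide spread between libraries. By their counts all 3 controls were male, while 2 of the 3 libraries in each ∆IEC group were female. With a term for sex each of these differences was smaller, as given below.

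All 3 groups are labelled as naïve mice, while the extraction text, the same for all 9 libraries, names a model of arthritis induced with collagen. The labels give no age, no genetic background beyond these alleles, no segment of the small intestine, and neither the Cre driver behind ∆IEC nor the exons it removes. They also do not say that each library is a separate animal, so a p-value here speaks of the spread among these libraries alone, some of which may be technical.

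Bile acids that reach the ileum are taken up from the lumen with sodium by ASBT, the product of Slc10a2, bound inside the cell by the ileal lipid binding protein FABP6, and passed to the portal blood by the heterodimer OSTα-OSTβ, encoded by Slc51a and Slc51b. The nuclear receptor FXR (Nr1h4) senses them in the cell and, paired with a retinoid X receptor, switches on Fabp6, both export subunits, the corepressor SHP (Nr0b2) and the hormone FGF15. FGF15 travels to the liver, where FGFR4 with β-Klotho lowers Cyp7a1, the rate-limiting enzyme of bile acid synthesis. In the mouse gut these genes are best known from the ileum, so their level in a preparation also depends on how much ileum it holds.

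Total counts per library ran from 20959964 to 40391453. All 13 markers of enterocytes and epithelium were detected in every library. Transcripts of the mitochondrial genome took 12.2% of counts in HIF1α∆IEC replicate 2 and 10.8% in HIF2α∆IEC replicate 1, against 5.04% to 6.74% in the other 7 libraries. By Xist and Y-linked counts the 3 controls were male, while each ∆IEC group had 1 male library, its replicate 1, and 2 female ones. Counts of the targeted genes over their whole length did not separate the groups: Hif1a had 22.6, 64.2 and 18.0 CPM (counts scaled to a common library size) in the libraries labelled HIF1α∆IEC against 16.0, 19.9 and 21.1 in the controls. Epas1 had 36.1, 11.2 and 11.6 CPM in the libraries labelled HIF2α∆IEC against 32.7, 14.5 and 21.1. A count over a whole gene does not check a deletion of some exons, so the groups are named below as the labels name them. CPM values here and below are scaled between libraries with TMM factors.

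Markers of other cell types differed between libraries as well, and their part in the members' values was not tested. The summed level of 13 T and intraepithelial lymphocyte markers was 451 to 601 CPM in the controls, 542 to 935 in HIF1α∆IEC and 329 to 3573 in HIF2α∆IEC, with the highest value in replicate 1. For 7 macrophage markers it was 33.1 to 40.7 CPM in the controls, 44.2 to 82.0 in HIF1α∆IEC, above every control, and 39.7 to 57.4 in HIF2α∆IEC. For 12 markers of stroma and muscle, of which 8 were tested, it was 17.7 to 23.9, 18.0 to 34.2 and 26.2 to 59.98 CPM in the same order. Vim was the highest of these markers and reached 42.9 CPM. For 6 erythroid markers, of which 5 were tested, the sum was 2.73 to 6.91, 2.61 to 23.8 and 13.1 to 118 CPM. HIF2α∆IEC lay above every control for both lists. For 8 Paneth cell markers the sum was 18402 to 27862, 24367 to 28197 and 9383 to 26586 CPM, with the lowest value in HIF2α∆IEC replicate 1. Of these markers 0 passed the adjusted edgeR test. At an unadjusted edgeR p under 0.05, 4 of the 7 macrophage and 4 of the 8 tested stroma markers were higher in HIF1α∆IEC than in controls, where 2.91% of all genes were. In HIF2α∆IEC 3 of 7, 6 of 8 and all 5 tested erythroid markers were, where 1.11% of all genes were. Of the 5 erythroid markers 0 were higher in HIF1α∆IEC. Of the 13 lymphocyte markers 0 were higher in HIF1α∆IEC and 1 in HIF2α∆IEC. Of the 8 Paneth cell markers 0 passed in HIF1α∆IEC. In HIF2α∆IEC 1 Paneth cell marker passed and was lower, where 1.85% of all genes passed in either direction.

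The promoters of the members are shown first, because FXR binds a known element near several of them and HIF a short core motif. RefSeq promoter entries of build GRCm38.p6 were found for 6 of the 7 genes, the exception being Fgf15. The 4 that held a HIF core are printed 5′ to 3′ on the gene's own strand, each covering the 250 bases before the RefSeq start. These are Fabp6 at chr11:43601563-43601812 on the minus strand, Slc10a2 at chr8:5105288-5105537 on the minus strand, Nr0b2 at chr4:133553126-133553375 on the plus strand and Slc51a at chr16:32487880-32488129 on the minus strand. Capitals mark matches to the motifs searched on both strands, which were the inverted repeat of FXR (IR-1, AGGTCANTGACCT, up to 2 differences), the HIF core (ACGTG or GCGTG), the core of LRH-1 (CAAGGNCA) and the E-box CACGTG, which holds the HIF core on both strands.
Fabp6: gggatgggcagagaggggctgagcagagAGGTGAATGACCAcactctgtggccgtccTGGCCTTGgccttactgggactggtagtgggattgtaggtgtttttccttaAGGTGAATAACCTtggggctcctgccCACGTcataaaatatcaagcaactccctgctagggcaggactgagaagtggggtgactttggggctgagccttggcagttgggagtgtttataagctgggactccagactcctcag
Slc10a2: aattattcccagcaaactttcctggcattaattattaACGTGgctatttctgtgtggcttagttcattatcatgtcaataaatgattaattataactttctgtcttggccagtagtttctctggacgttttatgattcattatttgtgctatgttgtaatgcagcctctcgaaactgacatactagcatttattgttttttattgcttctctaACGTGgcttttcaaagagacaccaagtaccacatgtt
Nr0b2: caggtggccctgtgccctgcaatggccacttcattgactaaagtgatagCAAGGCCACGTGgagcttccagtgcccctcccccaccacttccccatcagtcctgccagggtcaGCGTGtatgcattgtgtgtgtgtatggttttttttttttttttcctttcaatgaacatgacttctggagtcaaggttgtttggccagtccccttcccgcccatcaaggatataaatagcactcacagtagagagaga
Slc51a: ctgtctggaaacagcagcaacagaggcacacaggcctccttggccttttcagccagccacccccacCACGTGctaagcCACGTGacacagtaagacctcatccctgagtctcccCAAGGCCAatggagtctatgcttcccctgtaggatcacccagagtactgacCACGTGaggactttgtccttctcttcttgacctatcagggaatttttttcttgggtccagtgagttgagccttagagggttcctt
Fabp6 was the member with IR-1-like elements. One lay at -222 to -210 from the start, with the differences C5G and T13A from the consensus, and the other at -142 to -130, with C5G and G9A, positions counted from 1 at the 5′ end of the motif. Of 32851 promoter windows of the same length, 0.959% held an IR-1 with up to 2 differences. The HIF core was far more common, being present in 38.6% of windows and in 4 of the 6 promoters read. Fabp6 held 1 match, Slc10a2 held 2, Nr0b2 held 3 and Slc51a held 6. Each CACGTG palindrome, 1 in Nr0b2 and 3 in Slc51a, was counted on both strands. CACGTG was in 6.02% of windows. The LRH-1 core, in 5.53% of windows, was present in Fabp6, Nr0b2 and Slc51a, and in Nr0b2 it overlapped the CACGTG. No match to these letters was found in the windows of Nr1h4 and Slc51b. The RefSeq start of Nr1h4 lies inside the gene span given in the count table, so its window belongs to an internal start.

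Slc10a2 (ENSMUSG00000023073, mm10 chromosome 8, 5085623 to 5105232, minus strand) encodes the uptake transporter. The control libraries had 1.71, 1.95 and 3.19 CPM, those labelled HIF1α∆IEC 2.28, 8.24 and 0.927, and those labelled HIF2α∆IEC 2.61, 2.54 and 1.50. HIF1α∆IEC held both the highest and the lowest of the 9 values, in replicates 2 and 3, and all groups overlapped. The log2 fold change against control was 0.73 ± 0.65 (SE, n = 3 a group) in HIF1α∆IEC and -0.05 ± 0.65 in HIF2α∆IEC, with edgeR adjusted p-values of 0.999 and 1.00. Replicate 2 decided the first: without it the log2 fold change was -0.54, and without replicate 3 it was 1.18. In HIF2α∆IEC the value ran from -0.24 without control 1 to 0.27 without control 3. Between the ∆IEC groups it was -0.77 ± 0.65, 0.48 without replicate 2 of HIF1α∆IEC and -1.23 without its replicate 3. Each value rests on 26 to 156 counts, which gives a counting error of 8.01% to 19.6% a library.

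Fabp6 (ENSMUSG00000020405, chromosome 11, 43596049 to 43601540, minus strand) encodes the cytosolic bile acid carrier. Its product is long known as the most abundant bile acid binding protein of the ileal enterocyte. Slc51a gave more counts than Fabp6 in control 1 (6192 against 2997) and control 2 (4676 against 3283). The same held in HIF1α∆IEC replicate 1 (9607 against 8477). In all other libraries Fabp6 gave the most counts of the members. Fabp6 had 146, 133 and 402 CPM in the controls, 307, 838 and 403 in HIF1α∆IEC and 396, 629 and 701 in HIF2α∆IEC. Controls 1 and 2 were the lowest of the 9 libraries, while control 3 lay within the range of HIF1α∆IEC and just above the lowest HIF2α∆IEC library, so both ∆IEC groups overlapped the controls. The means were 227 ± 151 CPM (SD, n = 3) in the controls, 516 ± 283 in HIF1α∆IEC and 575 ± 160 in HIF2α∆IEC.

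The log2 fold change of Fabp6 was 1.18 ± 0.47 (SE) in HIF1α∆IEC, a 2.27-fold higher level with a 95% interval of 1.11 to 4.65. In HIF2α∆IEC it was 1.34 ± 0.47, a 2.53-fold higher level with an interval of 1.23 to 5.20. The unadjusted p-values of edgeR's quasi-likelihood test were 0.0284 and 0.0158, and the p-values adjusted over 15486 genes were 0.999 and 1.00. Both comparisons share the same 3 controls. Between HIF2α∆IEC and HIF1α∆IEC the log2 difference was 0.16 ± 0.47, with an interval of -0.86 to 1.18, and it ran from -0.07 without HIF1α∆IEC replicate 1 to 0.74 without its replicate 2. Without HIF1α∆IEC replicate 2 the value against control was 0.60. Without control 3 the values were 1.88 and 2.04. With a term for sex they were 0.53 and 0.72, and the part of sex in these values cannot be told apart from group in the controls, which were all male.

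Slc51a (ENSMUSG00000035699, chromosome 16, 32475522 to 32487879, minus strand), the larger subunit of the basolateral exporter, had the smallest range over the libraries. It had 302.3, 190.0 and 268 CPM in the controls, 348, 291 and 298 in HIF1α∆IEC and 354, 246 and 279.8 in HIF2α∆IEC. The lowest library was control 2 and the highest HIF2α∆IEC replicate 1, a range of 1.86-fold, and the groups overlapped. Its log2 fold change was 0.30 ± 0.23 (SE) in HIF1α∆IEC and 0.21 ± 0.23 in HIF2α∆IEC (edgeR adjusted p 0.999 and 1.00), with intervals of -0.21 to 0.81 and -0.30 to 0.72. Without control 2 these values were 0.13 and 0.04. Without HIF1α∆IEC replicate 1 the first was 0.18, and without HIF2α∆IEC replicate 1 the second was 0.07. Pcyt1a overlaps 567 bases of it on the opposite strand, and the strand setting of the counting is not given in the sources used here.

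Slc51b (ENSMUSG00000053862, chromosome 9, 65412753 to 65422773, minus strand), the partner subunit without which OSTα does not reach the membrane, had 42.3, 44.3 and 58.2 CPM in the controls. It had 53.5, 78.7 and 37.7 in HIF1α∆IEC and 87.5, 38.4 and 78.4 in HIF2α∆IEC. The controls lay close together, within the wider range of either ∆IEC group. Fitted against control, its log2 fold change was 0.23 ± 0.34 (SE) in HIF1α∆IEC and 0.50 ± 0.34 in HIF2α∆IEC, with edgeR adjusted p-values of 0.999 and 1.00. The first ran from -0.11 without HIF1α∆IEC replicate 2 to 0.44 without its replicate 3. The second was 0.30 without HIF2α∆IEC replicate 1 and 0.78 without replicate 2. Rasl12, on the opposite strand, overlaps 2140 bases of the gene span and had 48 to 304 counts a library.

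Both subunits form one transporter, and their ratio within a library does not depend on the scaling between libraries. The log2 ratio of Slc51a to Slc51b CPM was 2.38 ± 0.40 (SD, n = 3) in the controls, 2.52 ± 0.57 in HIF1α∆IEC and 2.18 ± 0.45 in HIF2α∆IEC. Exact two-sided permutation tests gave p = 0.9 for HIF1α∆IEC and 0.5 for HIF2α∆IEC against control. Over the 9 libraries the Pearson correlation of the subunits' log2 CPM was 0.405, a description of libraries that share depth and preparation.

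Nr1h4 (ENSMUSG00000047638, chromosome 10, 89454234 to 89533585, minus strand), which encodes the receptor FXR, had 27.9, 40.5 and 57.5 CPM in the controls, 35.1, 47.2 and 30.3 in HIF1α∆IEC and 39.1, 37.1 and 62.4 in HIF2α∆IEC. The controls alone spanned most of the range and every group overlapped the others. The log2 fold changes were -0.16 ± 0.31 (SE) in HIF1α∆IEC and 0.14 ± 0.31 in HIF2α∆IEC, with edgeR adjusted p-values of 0.999 and 1.00 and intervals of -0.85 to 0.52 and -0.54 to 0.82. The first ran from -0.42 without control 1 to 0.13 without control 3, and the second from -0.14 without HIF2α∆IEC replicate 3 to 0.43 without control 3.

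Nr0b2 (ENSMUSG00000037583, chromosome 4, 133553376 to 133556536, plus strand), whose product SHP is a corepressor induced by FXR, had 3.96, 1.18 and 3.41 CPM in the controls. It had 4.13, 4.22 and 5.60 in HIF1α∆IEC and 3.81, 3.70 and 1.83 in HIF2α∆IEC. The 3 HIF1α∆IEC libraries were the highest of the 9, without overlap with either other group. Replicate 1 and control 1 differed by less than counting error, with exact Poisson 95% intervals of 3.41 to 4.96 and 3.14 to 4.92 CPM. The log2 fold change was 0.71 ± 0.47 (SE) in HIF1α∆IEC, 0.13 ± 0.47 in HIF2α∆IEC and -0.58 ± 0.47 between HIF2α∆IEC and HIF1α∆IEC, with edgeR adjusted p-values of 0.999, 1.00 and 0.895. Without control 2 the first was 0.34 and the second -0.25. The second was 0.41 without control 1, and the third was -0.31 without HIF2α∆IEC replicate 3. The log2 ratio of Nr0b2 to Nr1h4 was -3.96 ± 1.11 (SD) in the controls, -2.98 ± 0.53 in HIF1α∆IEC and -3.89 ± 1.00 in HIF2α∆IEC, and the exact permutation p for HIF1α∆IEC against control was 0.3.

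Fgf15 (ENSMUSG00000031073, chromosome 7, 144896532 to 144900953, plus strand), the hormone of the gut-liver axis, had the widest range, 23.8-fold between its lowest and highest library. It had 2.69, 0.528 and 1.29 CPM in the controls, 3.62, 12.6 and 3.82 in HIF1α∆IEC and 0.567, 3.36 and 2.70 in HIF2α∆IEC. All 3 HIF1α∆IEC libraries were above all 6 others, with replicate 2 far above its own group, and HIF2α∆IEC overlapped the controls. HIF1α∆IEC replicate 1 and HIF2α∆IEC replicate 2 differed by less than counting error, with exact Poisson 95% intervals of 2.95 to 4.41 and 2.78 to 4.03 CPM. The lowest value, in control 2, rests on 13 reads, with an exact Poisson 95% interval of 0.281 to 0.903 CPM that covers counting error only.

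The log2 fold change of Fgf15 in HIF1α∆IEC against control was 2.15 ± 0.76 (SE), a 4.45-fold higher level with a 95% interval of 1.41 to 14.0, and its unadjusted edgeR p was 0.0155. Adjusted over all genes the edgeR p was 0.999. In HIF2α∆IEC it was 0.57 ± 0.74, a value that turned on single libraries. It was 0.15 without HIF2α∆IEC replicate 2, 0.16 without control 2, 1.04 without HIF2α∆IEC replicate 1 and 1.27 without control 1. Between HIF2α∆IEC and HIF1α∆IEC it was -1.58 ± 0.73 with an unadjusted edgeR p of 0.0529 and an adjusted p of 0.757. Without HIF1α∆IEC replicate 2 the values for that group were 1.29 against control and -0.70 between the ∆IEC groups. With a term for sex the values against control were 0.94 in HIF1α∆IEC and -0.86 in HIF2α∆IEC. As for Fabp6, the part of sex cannot be told apart from group in the controls, which were all male. An antisense gene on the other strand, Gm26793, had 0 to 10 counts a library.

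**Figure D1:**
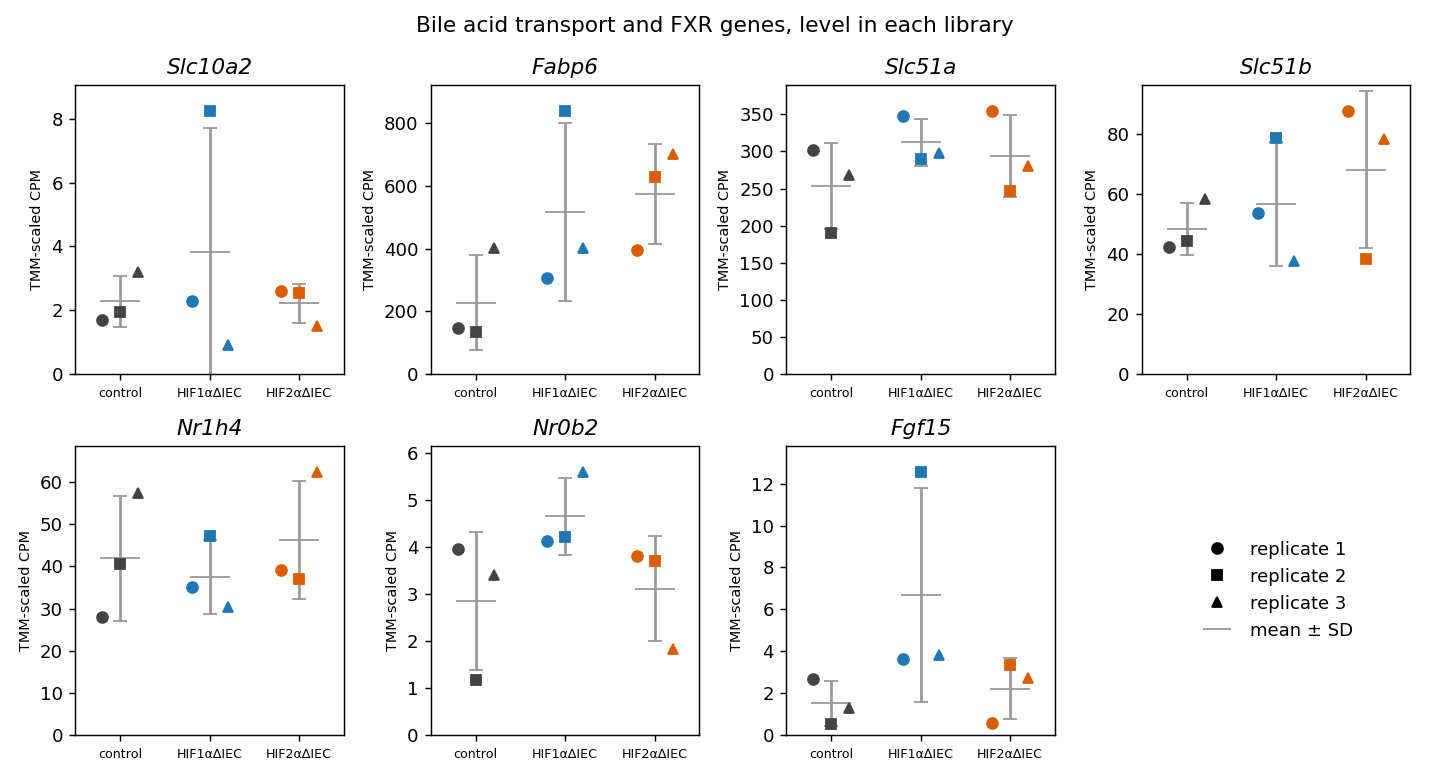
Level of each gene in TMM-scaled CPM (y axis, from 0) for the 3 libraries of each group, with symbols for replicates and grey bars for the mean ± SD. The HIF1α∆IEC libraries of Fgf15 and Nr0b2 lie above all others, HIF1α∆IEC replicate 2 is the highest library for Fabp6, Slc10a2 and Fgf15, and the lower SD bar of Slc10a2 in HIF1α∆IEC passes below 0.

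Of the 7 genes, 0 passed an adjusted p of 0.05 in edgeR in any of the 3 comparisons, where 0% of the 15486 genes tested did. DESeq2 and limma-voom also called 0 of the 7 in each, while DESeq2 called 0.013%, 0.0325% and 0.0975% of all genes in HIF1α∆IEC against control, HIF2α∆IEC against control and HIF2α∆IEC against HIF1α∆IEC. At an unadjusted edgeR p under 0.05, 2 of the 7 were higher in HIF1α∆IEC than in controls (Fabp6 and Fgf15), where 2.91% of all genes were. Fabp6 was the 1 gene in HIF2α∆IEC against control, where 1.11% of all genes were higher, and 0 passed between the ∆IEC groups, where 6.59% of all genes did in either direction. DESeq2 gave 2, 1 and 1 of the 7 in the 3 comparisons, where 4.66%, 2.31% and 7.91% of all genes passed in either direction, and limma-voom also 2, 1 and 1, where 3.87%, 1.43% and 6.74% did.

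Fgf15 and Nr0b2 were the 2 genes with HIF1α∆IEC libraries all above the controls, where 4.6% of all genes were, and the same 2 had HIF2α∆IEC libraries all below HIF1α∆IEC, where 6.08% were. No member separated HIF2α∆IEC from the controls, where 5.55% of all genes did in either direction. The fitted log2 fold change was above 0 for 6 of the 7 in HIF1α∆IEC and for 6 of the 7 in HIF2α∆IEC against control, where 52.7% and 52.9% of all genes were, and for 3 of the 7 between the ∆IEC groups, where 51.6% were. The median over the 7 was 0.71, 0.21 and -0.09 in the 3 comparisons, beside 0.02, 0.01 and 0.01 over all genes tested. The members share libraries, so they do not count as independent repeats of a comparison.

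**Figure D2:**
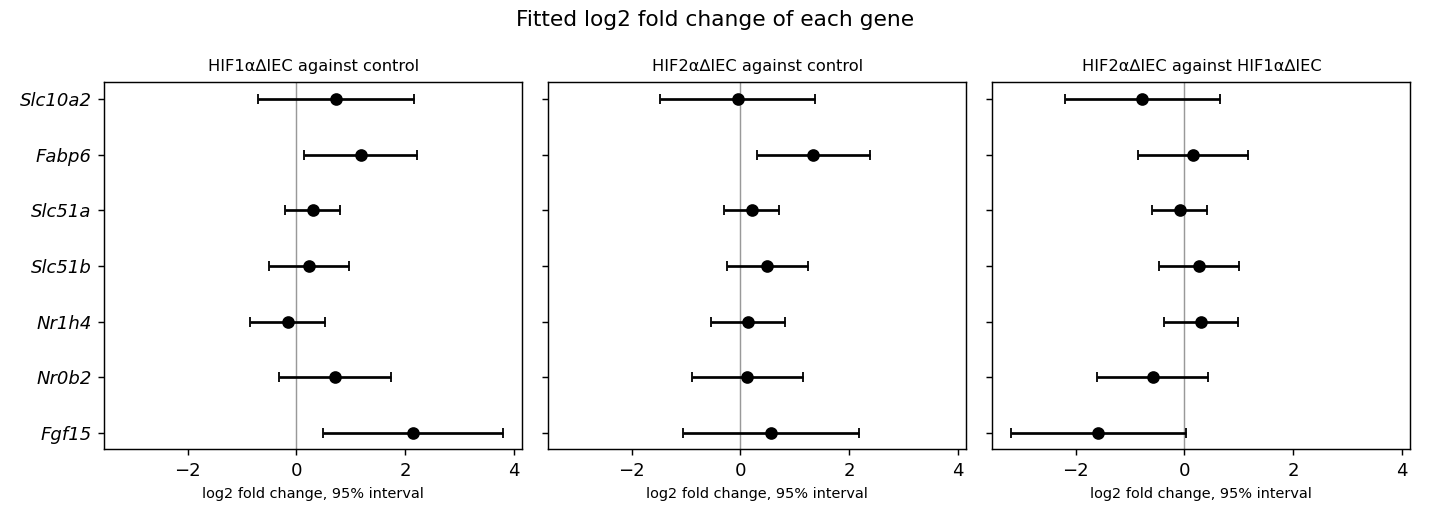
Fitted log2 fold change (x axis) of each gene in the 3 comparisons, with a 95% interval derived from the edgeR test. The intervals of Fabp6 in both comparisons with control and of Fgf15 in HIF1α∆IEC lie above 0 before adjustment over all genes, and the others include 0.

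Levels can be compared between genes per kilobase of exon (RPKM). Fabp6 led in the controls with 474 ± 316 RPKM (SD, n = 3), followed by Slc51a with 79.3 ± 18.0, Slc51b with 68.1 ± 12.2, Nr1h4 with 18.2 ± 6.45, Nr0b2 with 2.52 ± 1.30, Slc10a2 with 0.550 ± 0.191 and Fgf15 with 0.491 ± 0.358. The ranges of Slc51a and Slc51b overlapped, as did those of Slc10a2 and Fgf15, so the order within these pairs was not resolved, while the other neighbours had separate ranges. The carrier thus stood above the export subunits, and these above the receptor, in each of the 3 groups, while the uptake transporter was below 1 RPKM on average. Mean RPKM of Fabp6 was 1077 in HIF1α∆IEC and 1201 in HIF2α∆IEC.

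In HIF1α∆IEC Fgf15, with 2.18 RPKM, stood above Slc10a2, with 0.919, and its range overlapped those of both Nr0b2 and Slc10a2. In HIF2α∆IEC Slc51b averaged 96.0 and Slc51a 91.8 RPKM, again with overlapping ranges. These values use the union of exons in GENCODE M21. The gene lengths in the deposited table are shorter for 4 of the 7, for example 1629 against 4152 bases for Slc10a2 and 1600 against 3198 for Slc51a, and with them Slc10a2 came to 1.40 and Slc51a to 158 RPKM in the controls, and the ranges of Nr0b2 and Slc10a2 overlapped. That alternative was chosen after the data were seen.

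**Figure D3:**
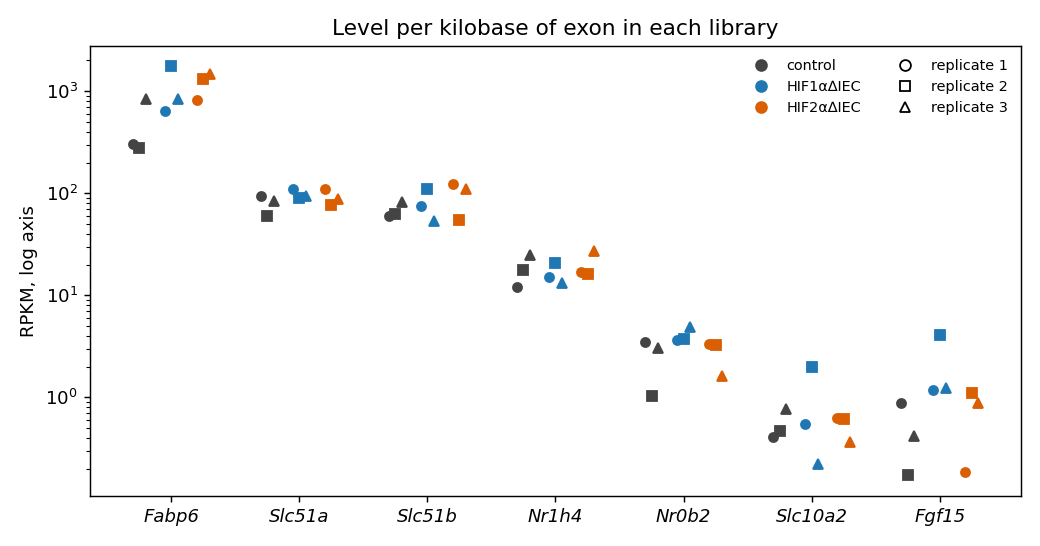
RPKM of each gene (log y axis) in each library, with colours for groups and symbols for replicates. Fabp6 lies above the export subunits, Nr1h4 follows, and Nr0b2, Slc10a2 and Fgf15 hold the bottom of the order. Over the 9 libraries Fgf15 spread most, 23.8-fold, followed by Slc10a2 with 8.88-fold and Fabp6 with 6.28-fold.

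The members did not follow one order of libraries. HIF1α∆IEC replicate 2 was highest for 3 genes (Slc10a2, Fabp6 and Fgf15), HIF2α∆IEC replicate 1 for 2 (Slc51a and Slc51b), HIF2α∆IEC replicate 3 for Nr1h4 and HIF1α∆IEC replicate 3 for Nr0b2. Control 2 was lowest for 4 (Fabp6, Slc51a, Nr0b2 and Fgf15). The highest Pearson correlations between members over the 9 libraries were 0.720 for Nr0b2 with Slc51a, 0.641 for Nr1h4 with Slc51b and 0.558 for Fabp6 with Fgf15, and the lowest was -0.456 for Nr1h4 with Nr0b2. They describe these libraries, which share groups and preparation. HIF1α∆IEC replicate 2 and HIF2α∆IEC replicate 1 are the libraries with the highest mitochondrial share, and the part of that share in these values was not tested. Of 10 listed markers of colonocytes 9 were tested, and Ly6g was at 0 in all libraries. Their mean log2 level relative to controls was highest in HIF1α∆IEC replicate 2, at 1.19, while their summed level, mostly Muc2 of goblet cells, was lowest there, with 1640 CPM against 2232 to 2835 in the rest of its group, 2592 to 2699 in HIF2α∆IEC and 2017 to 2377 in control libraries. Car1, a carbonic anhydrase of the colon, had 46.0 CPM in that library, 0.217 and 0 in the others of its group, at most 1.82 in HIF2α∆IEC and 0.0759 to 6.20 in the controls, and the part of colon in the members' values was not tested. Without HIF1α∆IEC replicate 2 and HIF2α∆IEC replicate 1 the log2 fold change was 0.60 for Fabp6 and 1.30 for Fgf15 in HIF1α∆IEC, and 1.56 for Fabp6 in HIF2α∆IEC.

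In bulk RNA, fewer cells of a type and less RNA per cell cannot be told apart, so the members were also read against 28 other markers of distal small intestine enterocytes. The mean log2 level of these markers, relative to the control mean, was -0.12 to 0.14 in control libraries, 0.062 to 0.40 in HIF1α∆IEC and -0.13 to 0.65 in HIF2α∆IEC. The value of 0.65 was in HIF2α∆IEC replicate 1, which was also highest for proximal markers (1.06) and for general enterocyte markers (0.61). The distal list also held the hormone genes Pyy and Nts, and Abcb1a, which is among the FXR targets read below. Its mean is therefore not a measure of ileal content alone, and ratios to it do not correct for that content. Of the 28, 20 had a positive log2 fold change in HIF1α∆IEC and 24 in HIF2α∆IEC against control, with medians of 0.20 and 0.29, and 0 passed the edgeR test. Of 36 markers of proximal enterocytes, 16 and 27 were positive, with medians of -0.08 and 0.25. Their mean level reached 1.06 in HIF2α∆IEC replicate 1 and lay at -0.59 and -0.37 in replicates 2 and 3 of that group.

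Fabp6 stood 1.29 ± 0.76 log2 units (SD, n = 3) above the distal marker mean in the controls, 2.33 ± 0.59 in HIF1α∆IEC and 2.55 ± 0.79 in HIF2α∆IEC. The differences from control, 1.04 and 1.26, each had an exact two-sided permutation p of 0.2. Single libraries had 0.87, 0.83 and 2.16 in the controls, 1.79, 2.96 and 2.24 in HIF1α∆IEC and 1.63, 3.08 and 2.93 in HIF2α∆IEC. Control 3 thus lay inside the range of both ∆IEC groups on this scale too.

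Fgf15 relative to the distal marker mean was -4.86, -6.97 and -6.05 in the controls, -4.59, -3.09 and -4.45 in HIF1α∆IEC and -7.65, -4.44 and -5.06 in HIF2α∆IEC. The HIF1α∆IEC libraries were above all 3 controls, by 1.92 on average, at an exact permutation p of 0.1, the smallest that 3 against 3 allows. On this scale 1 HIF2α∆IEC library, replicate 2, exceeded HIF1α∆IEC replicates 1 and 3. Nr0b2 relative to the same mean overlapped between HIF1α∆IEC and control, with a difference of 0.65 and an exact permutation p of 0.4.

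The carrier was also read against the uptake transporter. The log2 ratio of Fabp6 to Slc10a2 CPM was 6.36, 6.05 and 6.95 in the controls, 7.03, 6.66 and 8.66 in HIF1α∆IEC and 7.21, 7.92 and 8.80 in HIF2α∆IEC. All HIF2α∆IEC libraries were above all controls, by 1.52 on average (exact permutation p = 0.1), and HIF1α∆IEC, higher by 1.00 (p = 0.2, exact), overlapped them. Relative to Vil1, the actin-bundling villin of the brush border, Slc51a had a log2 ratio of -3.03 ± 0.10 (SD) in the controls, -2.64 ± 0.09 in HIF1α∆IEC and -2.83 ± 0.11 in HIF2α∆IEC. The HIF1α∆IEC libraries did not overlap the controls, a difference of 0.38. They did not overlap HIF2α∆IEC either, with a difference of -0.19 for HIF2α∆IEC against HIF1α∆IEC. Both had an exact p of 0.1, the smallest possible here. Ratios of Fgf15 and of Nr0b2 to Vil1 also had an exact p of 0.1 for HIF1α∆IEC against control. In all, 18 ratios were compared in 3 pairs of groups, 54 exact tests, and the smallest p adjusted by Benjamini-Hochberg was 0.771. With no difference between groups, an exact p of 0.1 has a probability of 0.1 in each test. Some ratios among the 54 tests would then separate 2 groups, so these separations are not read as results.

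**Figure D4:**
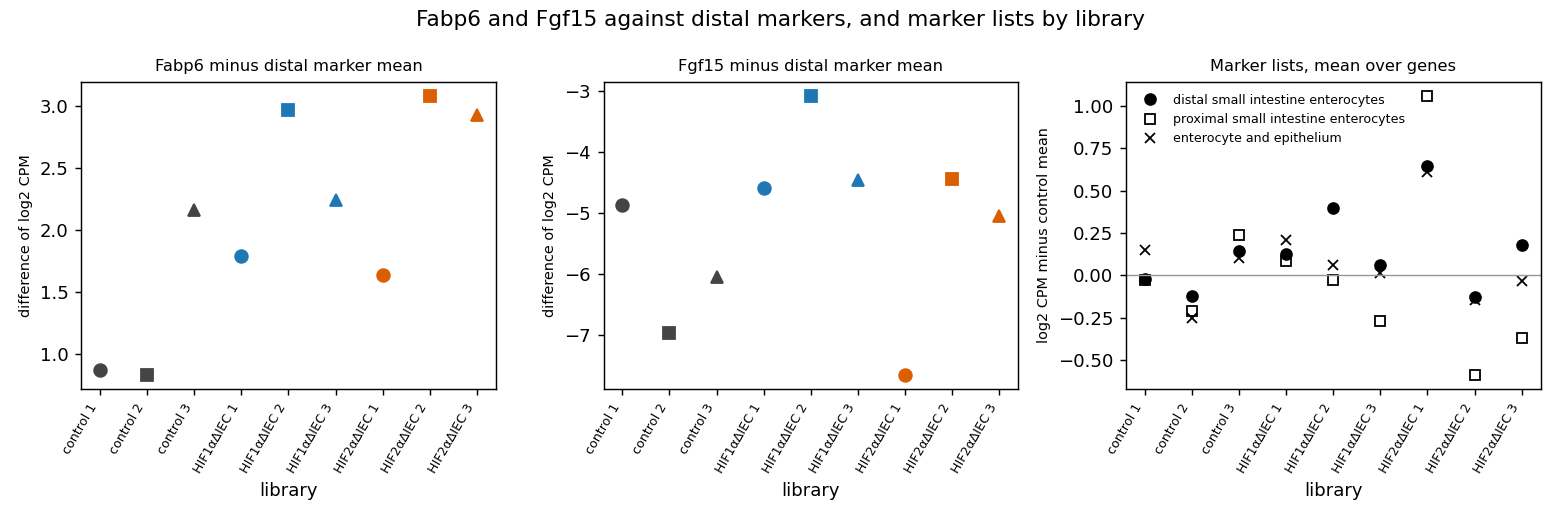
Log2 CPM of Fabp6 (left) and Fgf15 (middle) minus the mean of 28 distal markers in each of the 9 libraries, and the mean level of distal, proximal and general enterocyte markers relative to the control mean (right). The 3 HIF1α∆IEC libraries of Fgf15 lie above the 3 controls, and HIF2α∆IEC replicate 1 has the highest proximal value, 1.06.

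Further genes of bile acid biology were read from 4 lists of 79 genes, of which 66 had enough counts to be tested. In edgeR 0 of the 66 passed an adjusted p of 0.05 in any comparison, and at an unadjusted p under 0.05 there were 0 in HIF1α∆IEC against control, 2 in HIF2α∆IEC against control and 4 between the ∆IEC groups, where 3.87%, 1.85% and 6.59% of all genes passed in either direction. The median log2 fold change over the 66 was -0.01, 0.05 and 0.05. DESeq2 and limma-voom also called 0 of them in each comparison. The genes left untested had counts near 0, as for Gpbar1, the membrane bile acid receptor TGR5, with 0 to 5 counts a library. Cyp7a1 had 0 counts in all 9 libraries, as did Cyp7b1.

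Of 24 tested genes listed under bile acid sensing and regulation, 11 had a positive log2 fold change in HIF1α∆IEC and 7 in HIF2α∆IEC against control, and 9 between the ∆IEC groups. Besides nuclear receptors and their cofactors, this list held transcription factors of the gut and the FGF15-related genes Klb, Fgfr4 and Malrd1. Rxra, the retinoid X receptor that pairs with FXR, had 202 ± 31.9 CPM (SD, n = 3) in the controls, 194 ± 30.8 in HIF1α∆IEC and 198 ± 30.9 in HIF2α∆IEC. Hnf4a, a master regulator of enterocyte identity, had 1175, 1045 and 1028 CPM on average. Gata4, which represses ileal genes in the proximal intestine, had 267, 238 and 221, and Nr5a2, which encodes LRH-1, had 22.7, 26.3 and 20.3.

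Nr2f6, an orphan nuclear receptor, had 88.4 ± 23.1 CPM (SD) in the controls, 132 ± 23.3 in HIF1α∆IEC and 79.6 ± 24.9 in HIF2α∆IEC. Its log2 difference between HIF2α∆IEC and HIF1α∆IEC was -0.72 ± 0.27 (SE; edgeR unadjusted p = 0.0221, adjusted p = 0.688), with groups that did not overlap. Of the 24 genes, 2 had HIF2α∆IEC wholly below HIF1α∆IEC, where 6.08% of all genes did. Malrd1, known in mouse as Diet1 and reported to favour FGF15 production, had 19.3, 15.4 and 14.3 CPM in the control libraries against 15.4, 66.5 and 16.3 in HIF1α∆IEC. HIF1α∆IEC replicate 2 was the highest library, as for Fgf15, and the log2 fold change of Malrd1 was 1.00 ± 0.55 (SE) with it and -0.072 without it. Vdr, the vitamin D receptor, which also binds lithocholic acid, had a log2 fold change of -0.27 ± 0.21 in HIF1α∆IEC, -0.14 without replicate 2 and -0.41 without replicate 1. Klb, the β-Klotho coreceptor of FGF15 in liver, was at 0.409 CPM or below on average in each group.

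Among 14 tested genes of other transport, synthesis and conjugation steps, 3 were positive in HIF1α∆IEC, 11 in HIF2α∆IEC against control and 11 between the ∆IEC groups, with medians of -0.17, 0.09 and 0.32. Abcc3, a basolateral exporter of conjugates, had 164 ± 39.1 CPM (SD) in the controls, 136 ± 32.2 in HIF1α∆IEC and 172 ± 19.7 in HIF2α∆IEC. Its apical relative Abcc2 had 131 ± 31.3, 96.5 ± 37.4 and 179 ± 174, the last with 379 CPM in replicate 1. Cyp3a11, which hydroxylates bile acids and drugs, likewise had 554 CPM in HIF2α∆IEC replicate 1 against 29.2 and 62.9 in the other two. Its log2 fold change against control was 2.46 ± 0.91 (SE; edgeR unadjusted p = 0.0195, adjusted p = 1.00) and 0.26 without that library, which also had the highest level of proximal markers. The part of proximal tissue in this value was not tested.

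Of 15 further genes described as FXR targets in intestine, 9, 10 and 7 were positive in the 3 comparisons, with medians of 0.08, 0.14 and -0.02. Il18, an epithelial cytokine, had 24.2 ± 12.8 CPM (SD) in the controls, 13.3 ± 3.15 in HIF1α∆IEC and 28.9 ± 18.9 in HIF2α∆IEC, and its log2 difference between the ∆IEC groups was 1.12 ± 0.50 (SE; edgeR unadjusted p = 0.0479, adjusted p = 0.750). Without HIF2α∆IEC replicate 1, with 49.7 CPM against 12.8 and 24.3 in the others of its group, it was 0.53. Nos2, the inducible nitric oxide synthase, had 66.9, 51.2 and 99.4 CPM on average, and its log2 difference between the ∆IEC groups was 0.96 ± 0.53, and 0.42 without HIF2α∆IEC replicate 3. Smpd3, a neutral sphingomyelinase, had 260 ± 36.5, 256 ± 58.1 and 241 ± 101.4 CPM.

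Of 13 sphingolipid genes linked to intestinal HIF2α and FXR, 7, 11 and 9 were positive, with medians of 0.04, 0.07 and 0.18. Acer1, an alkaline ceramidase, had 18.0, 12.9 and 15.7 CPM in the controls, 26.7, 19.1 and 22.5 in HIF1α∆IEC and 26.9, 43.8 and 33.2 in HIF2α∆IEC. All 3 groups were separate, with controls lowest and HIF2α∆IEC highest, but neighbouring groups lay close. The nearest libraries had 18.0 and 19.1 CPM between controls and HIF1α∆IEC, and 26.7 and 26.9 CPM between the ∆IEC groups. Over all genes 4.6% had HIF1α∆IEC wholly above the controls, and 5.55% separated HIF2α∆IEC from the controls in either direction. The share with HIF2α∆IEC wholly above HIF1α∆IEC is not given here, so nothing is read from the order of the 3 groups. Fitted against control, the log2 fold change of Acer1 in HIF2α∆IEC was 1.16 ± 0.27 (SE), with an unadjusted edgeR p of 0.00103 and an adjusted p of 1.00, and in HIF1α∆IEC it was 0.55 ± 0.26. For HIF2α∆IEC the adjusted p was 0.074 with DESeq2, the smallest among the alternatives run, and up to 1.00 in the others. The other 12 genes of this list had a larger unadjusted p in that comparison.

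The genes whose level over the 9 libraries was most like that of a member were taken from 10274 tested genes with a mean of at least 5 CPM, by Pearson's r of log2 CPM. For Fgf15 they were Cdpf1 (0.943), Guca2a (0.938), Cldn7 (0.937), Mrps14 (0.937) and Ppp1r14d (0.936). Guca2a encodes the gut peptide guanylin and Cldn7 a claudin of the epithelial junctions. Guca2a had 460, 242 and 265 CPM in the controls, 582, 955 and 559 in HIF1α∆IEC and 253, 452 and 318 in HIF2α∆IEC, so that HIF1α∆IEC replicate 2 was again the highest library and control 2 the lowest.

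For Fabp6 the genes were Ostc (0.905), Pdcd5 (0.855), Zfp53 (0.846), Cox7b (0.834) and Gm3788 (0.832). Ostc, a subunit of the oligosaccharyltransferase of the endoplasmic reticulum, ran only from 92.7 CPM in control 2 to 128 in HIF2α∆IEC replicate 3, a much narrower range than Fabp6. For Slc10a2 they were Cxadr (0.928), Bche (0.921), Klhl9 (0.918), Pgap1 (0.906) and Strn3 (0.902), and for Slc51b they were Fam188a (0.957), Lactb (0.945), Gsk3b (0.943), Atg3 (0.942) and Yipf5 (0.937). No other member was among the 5 nearest genes of any of these. Slc10a2, Fgf15 and Nr0b2 averaged under 5 CPM and were not candidates, so only Fabp6, Slc51a, Slc51b and Nr1h4 could have appeared. The values describe 9 libraries that share groups, depth and preparation, and are not evidence of a tie between genes.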

How the data were processed

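The labels name an Illumina TruSeq kit for the epithelial RNA of 9 mouse libraries. The authors deposited raw counts per gene with coordinates, used as deposited. From the submitters' processing notes come CASAVA, Bowtie 0.12.2 and the build mm10. For the counting program, its annotation and any use of strand, the entry is not given in the sources used here.

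All steps ran in R 4.3.3. For edgeR 4.0.16, 15486 of 43629 genes passed filterByExpr, TMM factors scaled the libraries, and one quasi-likelihood fit by group covered the 9 libraries, leaving 6 residual degrees of freedom. Two-sided p-values were adjusted over all genes tested (Benjamini-Hochberg) and called under 0.05. The biological coefficient of variation common to all genes was 0.353. Log2 CPM used a prior count of 2. RPKM used union exon lengths of GENCODE M21. Ratios were compared by exact permutation tests. Fits were tested on simulated counts with known changes.

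The members and lists were chosen with earlier results of these data known. The text names all 7 members and, of each list, up to 4 genes of smallest p per comparison, a fixed set of regulators and transporters (Rxra, Nr5a2, Hnf4a, Gata4, Gpbar1, Abcc2, Abcc3, Smpd3), Hif1a, Epas1, and the 5 genes most correlated with each of 4 members. Car1 and the genes left untested were named after their values were seen. Alternatives were DESeq2 1.42.0, voom from limma 3.58.1, scaling by RLE or by upper quartile, no filter, a minimum of 1 CPM in 3 libraries, the 6 libraries compared, a replicate block, a sex term and leaving out libraries.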

Additional observations from a re-analysis of the deposited data

How the results depend on the processing

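Members and list genes called were 0 in each comparison under all 19 alternatives. Of 399 alternative values of the 21 member log2 fold changes, 378 kept their direction and 21 turned, and the smallest edgeR adjusted p among the members was 0.485. Without HIF1α∆IEC replicate 2 and HIF2α∆IEC replicate 1 together, values turned to -0.54 for Slc10a2 and -0.11 for Slc51b in HIF1α∆IEC against control, to 0.36 for Slc10a2 in HIF2α∆IEC against HIF1α∆IEC, to -0.04 for Nr0b2 in HIF2α∆IEC against control, and to -0.072 for Malrd1 in HIF1α∆IEC and -0.012 for Cubn in HIF2α∆IEC against control. With a sex term, Fgf15 and Nr1h4 in HIF2α∆IEC against control turned to -0.86 and -0.032. The cause was not tested.

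Leaving out each library in turn, or the pair together, gave ranges that cross 0 as follows. Against control in HIF1α∆IEC these were -0.42 to 0.13 for Nr1h4, -0.54 to 1.18 for Slc10a2, -0.11 to 0.44 for Slc51b and -0.072 to 1.32 for Malrd1. Against control in HIF2α∆IEC they were -0.25 to 0.41 for Nr0b2, -0.14 to 0.43 for Nr1h4, -0.24 to 0.27 for Slc10a2 and -0.012 to 1.07 for Cubn. Between HIF2α∆IEC and HIF1α∆IEC they were -0.072 to 0.96 for Fabp6, -1.23 to 0.48 for Slc10a2 and -0.25 to 0.031 for Slc51a. The ranges of the values with the smallest p did not cross 0: Fabp6 had 0.60 to 1.88 for HIF1α∆IEC, 1.07 to 2.04 for HIF2α∆IEC, and Fgf15 from 1.29 to 2.82 in HIF1α∆IEC.

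Same-numbered libraries of different groups deviated together in 3 of 9 pairs (correlation over 0.1, range -0.37 to 0.24), so the numbers were not taken to pair the samples. With a replicate block 0 members were called, and the log2 fold changes were 1.22 for Fabp6 and 1.83 for Fgf15 in HIF1α∆IEC against control. Depth limits Fgf15, Slc10a2 and Nr0b2 most, with as few as 13, 26 and 29 reads in a library.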

Other observations

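The distal marker list held a pair of genes whose products form a receptor of the ileum, cubilin (Cubn) and amnionless (Amn), which take up vitamin B12 with intrinsic factor. They and Phgr1 are described here after their values were seen. Cubn had 29.0, 21.8 and 18.3 CPM in the controls, 38.4, 75.2 and 43.1 in HIF1α∆IEC and 73.4, 23.7 and 21.4 in HIF2α∆IEC. Amn had 134, 105 and 115 CPM in the controls, 140, 171 and 160 in HIF1α∆IEC and 154, 154 and 124 in HIF2α∆IEC. For both, the 3 HIF1α∆IEC libraries lay above the 3 controls. Of the 28 markers in the list 4 did (Phgr1, Prss30, Cubn and Amn), 0 lay below and 24 overlapped, while 20 of the 28 had a positive log2 fold change and 8 a negative one. Over all genes 4.6% lay above the controls. Since these genes were picked for their values, nothing is read from that share. The log2 fold change in HIF1α∆IEC against control was 1.18 ± 0.46 (SE, n = 3 a group) for Cubn and 0.41 ± 0.20 for Amn, with edgeR adjusted p-values of 0.999.

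Phgr1, an abundant epithelial gene, had 187, 113 and 144 CPM in the controls, 217, 540.2 and 250.4 in HIF1α∆IEC and 135, 181 and 134 in HIF2α∆IEC. Its log2 fold change was 1.18 ± 0.34 (SE) in HIF1α∆IEC against control and -1.16 ± 0.34 in HIF2α∆IEC against HIF1α∆IEC, with edgeR adjusted p-values of 0.999 and 0.649. As for Fgf15, HIF1α∆IEC replicate 2 had the highest value of the 9 libraries, and without it these values were 0.62 and -0.60.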
